A study of Mus musculus with 6 samples.

Results

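The 10 genes described here encode proteins that recognise the branch point and the 3' splice site of introns: U2af1, U2af2, U2af1l4, Sf1, Puf60, Rbm39, Sf3a1, Sf3b1, Sf3b2 and Sf3b3. They were taken by name from the 23420 rows of the deposited gene count table, all 10 were found, and their introns were read from the deposited lists of splice junctions. The RNA came from a BacTRAP pull-down, in which ribosomes that carry a GFP-tagged protein under the Pcp2 promoter, active in cerebellar Purkinje neurons, are captured with the RNA bound to them. Each of the 6 libraries was made from 1 cerebellum of a 4-week-old C57BL/6 mouse. The 3 control mice were Pcp2-BacTrap; Rbm17 f/+ with no Cre, so they held 1 floxed and 1 wild-type Rbm17 allele. The 3 knockout mice, labelled cKO, were Pcp2-BacTRAP; Pcp2-Cre; Rbm17 f/-, so Cre and the null allele were present in the cKO mice alone and cannot be told apart from loss of Rbm17 in Purkinje cells. All 6 mice carried the BacTRAP transgene and a floxed allele.

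An intron is removed only after its 3' end has been marked. Sf1 binds the branch point, U2af2 binds the pyrimidine tract and U2af1 binds the AG at the end of the intron. The U2 snRNP, whose SF3A and SF3B subcomplexes hold the branch point, then takes the place of Sf1. Puf60 and Rbm39 are relatives of U2af2, and U2af1l4 is a paralogue of U2af1. Rbm17, also called SPF45, is a splicing factor whose carboxy-terminal domain binds short motifs in Sf1, U2af2 and Sf3b1. Many splicing factor genes hold alternative exons that bring in a stop codon, so that the transcript with the exon can be degraded.

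The sequences below are shown because the results on Rbm39, U2af1 and U2af1l4 turn on them. They were read from GENCODE M21 transcripts on GRCm38 (mm10), 5' to 3' on the strand of the gene. Rbm39 lies on the minus strand of chromosome 2, and 3 exons that its leading protein-coding transcript lacks fall in its introns 2 and 3. Each is printed from its first base to the first stop codon that is in frame with the Rbm39 start, in capitals.
Rbm39 73-bp exon, chr2:156178880-156178952: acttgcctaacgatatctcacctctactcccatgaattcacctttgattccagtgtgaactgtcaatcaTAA
Rbm39 55-bp exon, chr2:156176403-156176457: agctcaaagtgcttcaTAA
Rbm39 72-bp exon, chr2:156174097-156174168: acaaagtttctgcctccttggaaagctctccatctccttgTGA
The intron end before the 73-bp exon is held by an annotated retained-intron transcript and is printed with the first 3 exon bases, the AG in capitals.
Rbm39 73-bp exon, end of the intron, chr2:156178950-156178982: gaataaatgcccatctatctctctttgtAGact
U2af1 lies on the minus strand of chromosome 17. Its exon 2 and its mutually exclusive exons 3 and Ab are printed whole; exons 3 and Ab are both 67 bases long and share 44 of them, 65.7%.
U2af1 exon 2, chr17:31654979-31655066: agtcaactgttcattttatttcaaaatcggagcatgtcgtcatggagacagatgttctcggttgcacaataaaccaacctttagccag
U2af1 exon Ab, chr17:31652502-31652568: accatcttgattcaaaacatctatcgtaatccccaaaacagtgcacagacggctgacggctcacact
U2af1 exon 3, chr17:31651646-31651712: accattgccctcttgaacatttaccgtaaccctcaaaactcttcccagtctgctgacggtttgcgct
In U2af1l4, Puf60 and Rbm39 reads also joined an annotated donor to an acceptor that the annotation lacks, a few bases inside the exon. The first bases of those exons are printed with the AG just before the new cut in capitals.
U2af1l4, new acceptor 12 nt inside, chr7:30565095-30565112, plus strand: gtcacctccaAGgtccca
Puf60, new acceptor 7 nt inside, chr15:76070615-76070627, minus strand: tctacAGtgatgg
Rbm39, new acceptor 6 nt inside, chr2:156150805-156150816, minus strand: cctcAGctttag

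Rbm17 itself stood at 41.2, 42.5 and 41.3 counts per 1000000 (CPM) in the control libraries and at 25.7, 25.6 and 26.3 CPM in the cKO libraries. Its log2 fold change was -0.69 ± 0.09 (SE, adjusted p = 0.00163, edgeR quasi-likelihood test). A junction that leaves out its 167-bp exon at chr2:11596629-11596795 had 3, 1 and 1 reads in the controls and 137, 106 and 136 in the cKO libraries. Gene counts summed to between 140110897 and 160571518 a library and junction reads to between 73457422 and 83976095. Of the 10 Purkinje cell markers 6 fell and none rose, and their summed level was 29533 to 39545 CPM in the controls against 17493 to 20364 CPM in the cKO libraries. Of 10 microglia and macrophage markers 7 rose and none fell, with sums of 45.7 to 61.8 CPM against 88.9 to 146.4 CPM. No granule cell or endothelial marker passed the test (0 of 8 and 0 of 6); of 7 astrocyte and Bergmann glia markers 1 rose and 2 fell, and 1 of 8 oligodendrocyte and 1 of 6 interneuron markers fell. No listed marker of any of these cell types was at 0 in all the controls. In such bulk pull-downs fewer cells of a type and less RNA per cell cannot be told apart, and the part of these marker shifts in the results below was not tested.

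At the gene level 3 of the 10 factors rose in cKO libraries (U2af1, Sf3b2 and Puf60) and 1 fell (Rbm39), while the other 6 did not pass the test. Across all 16067 genes tested, 4.03% were called higher and 3.85% lower. The groups did not overlap for 4 of the 10 factors, the same 4, against 28.4% of all genes. The median log2 fold change of the 10 was 0.13 and that of all genes 0.01, with 6 of the 10 above 0.

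**Figure D1:**
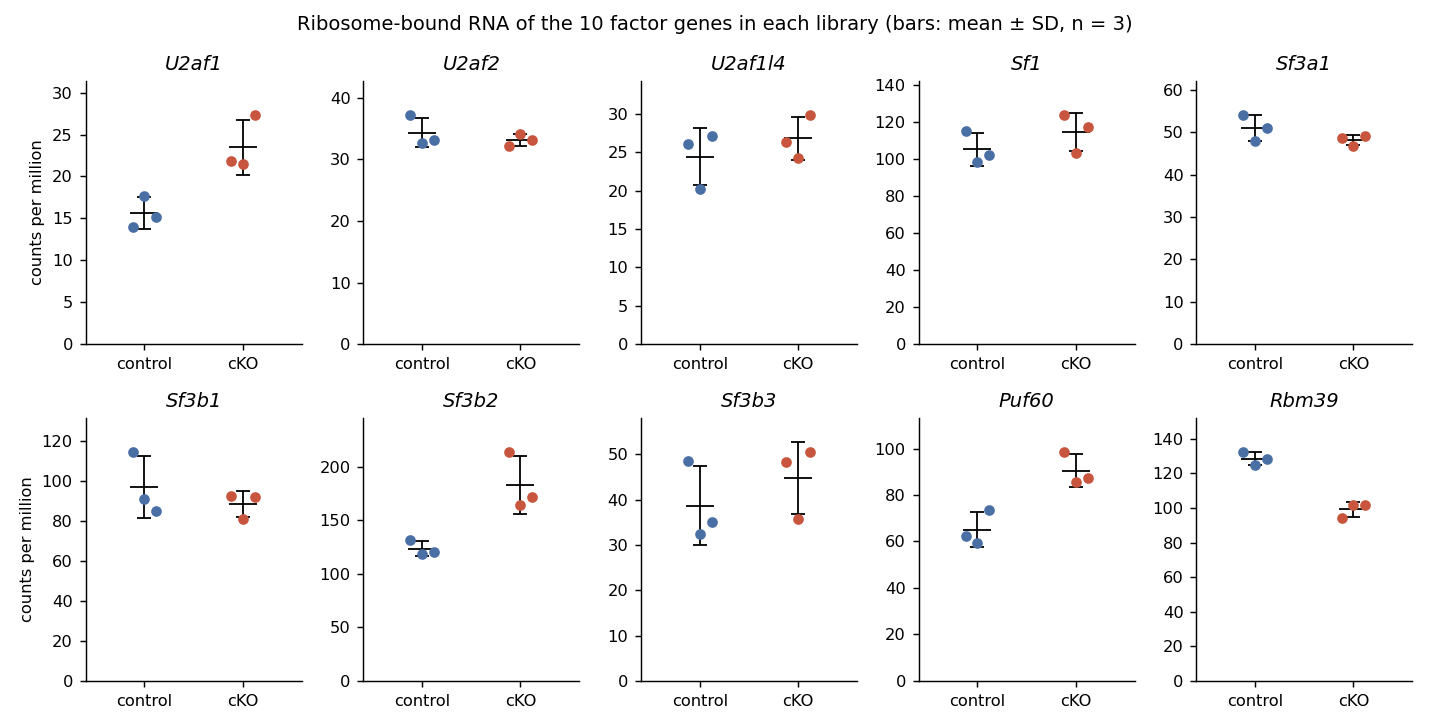
Counts per 1000000 (CPM) of each factor gene in the 3 control (blue) and 3 cKO (red) libraries, with the mean and SD in black; each panel has its own axis from 0. The groups stand apart in U2af1, Sf3b2 and Puf60, where cKO is higher, and in Rbm39, where cKO is lower.

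The small subunit of U2AF, U2af1, reads the AG of the 3' splice site. It was measured at 14.0, 17.7 and 15.2 CPM in the controls and at 21.8, 21.4 and 27.3 CPM in the cKO libraries. The highest control lay below the lowest cKO library. Group means were 15.6 ± 1.9 and 23.5 ± 3.3 CPM (SD, n = 3), and on the log2 scale the difference was 0.59 ± 0.14 (SE, adjusted p = 0.0287, edgeR quasi-likelihood test). The call was lost without control 1, control 3 or cKO 3, with adjusted p = 0.0704, 0.0813 and 0.130.

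Its partner U2af2, which holds the pyrimidine tract, was measured at 37.2, 32.7 and 33.2 CPM in the controls and 32.1, 34.1 and 33.1 CPM in cKO (log2 fold change -0.05 ± 0.10 SE, adjusted p = 0.807, edgeR). The groups overlapped, and the difference between the subunits of the heterodimer was not tested. U2af1l4, the paralogue of U2af1, had 26.0, 20.1 and 27.1 CPM in the controls and 26.4, 24.3 and 29.8 CPM in cKO (0.14 ± 0.14 SE, adjusted p = 0.628, edgeR). This gene overlaps Gm49396 on the same strand and Psenen on the other, so its gene count is uncertain. Sf1, which marks the branch point first, had 115.0, 98.4 and 101.9 CPM against 123.4, 103.3 and 117.2 CPM (0.13 ± 0.10 SE, adjusted p = 0.532, edgeR).

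Of the U2AF-related proteins, Puf60 rose. Its values were 62.5, 59.2 and 73.6 CPM in the controls and 98.5, 85.6 and 87.5 CPM in the cKO libraries, so every cKO library was above every control. The log2 fold change was 0.47 ± 0.11 (SE, adjusted p = 0.0252, edgeR). It did not pass without control 1, control 2, cKO 1 or cKO 3, with adjusted p = 0.0532, 0.125, 0.0801 and 0.0827.

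Rbm39 was the one factor that fell. It had 132.4, 125.0 and 128.6 CPM in the controls and 94.2, 101.9 and 101.9 CPM in cKO. Both groups were tight, with SDs of 3.71 and 4.45 CPM, and did not overlap. The log2 fold change was -0.37 ± 0.08 (SE, adjusted p = 0.0238, edgeR). The size stayed between -0.41 and -0.34 when any 1 library was left out, but the call was kept only without control 1 (adjusted p = 0.0367). The adjusted p was 0.0757 and 0.0539 without control 2 or 3, and 0.0711, 0.0627 and 0.0947 without cKO 1, 2 or 3.

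Among the SF3 subunits Sf3b2, which contacts the pre-mRNA around the branch point, rose. It was measured at 131.4, 118.8 and 120.1 CPM in the controls and at 213.5, 163.8 and 171.3 CPM in cKO, with cKO 1 the highest. Group means were 123.4 ± 6.9 and 182.9 ± 26.8 CPM (SD, n = 3), and on the log2 scale the difference was 0.57 ± 0.11 (SE, adjusted p = 0.0136, edgeR). Leaving out cKO 1 brought the value to 0.44, still past the threshold, while without control 2 or control 3 the adjusted p was 0.0855 and 0.0531.

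The other SF3 subunits did not pass. Sf3b1, the subunit that clamps the branch point helix, had 114.5, 91.1 and 85.2 CPM in the controls and 92.3, 80.8 and 92.0 CPM in cKO, with control 1 above all others (-0.13 ± 0.12 SE, adjusted p = 0.585, edgeR). Sf3b3, the large scaffold subunit beside it, had 48.6, 32.3 and 35.1 CPM against 48.3, 35.7 and 50.5 CPM (0.21 ± 0.17 SE, adjusted p = 0.530, edgeR). The spread within each group of Sf3b3 was as large as the difference between the group means, and its 5' end overlaps Cog4 on the opposite strand. Sf3a1, of the SF3A subcomplex, had 54.0, 48.0 and 51.1 CPM against 48.5, 46.8 and 49.1 CPM (-0.08 ± 0.09 SE, adjusted p = 0.645, edgeR).

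The other proteins of the 3' splice site were read from 2 wider lists. Across all 16067 genes tested, 4.03% were called higher and 3.85% lower, and the median log2 fold change was 0.01. Of 13 further U2 snRNP proteins 2 rose and 0 fell, with a median log2 fold change of 0.22. Dnajc8, a J-domain protein found with the spliceosome, had 53.1 ± 1.3 CPM in the controls and 75.6 ± 4.7 CPM in cKO (SD, n = 3; log2 difference 0.51, adjusted p = 0.00713, edgeR), and the call held without any 1 library (adjusted p at most 0.0470). Snrpa1, the U2 protein A', had 12.8 ± 1.0 and 19.0 ± 2.7 CPM (0.58, adjusted p = 0.0300, edgeR). Its call was lost without control 1, control 2, cKO 1 or cKO 2 (adjusted p = 0.0703, 0.116, 0.103 and 0.0747). Of the partners and regulators, 15 of 16 listed genes were in the table, 2 rose and 1, Rbm17 itself, fell, with a median of -0.03. Gpatch8, a G-patch protein, had a log2 fold change of 0.44 (adjusted p = 0.0242, edgeR), lost without control 2, control 3, cKO 1 or cKO 3 (adjusted p = 0.146, 0.101, 0.0568 and 0.122). Rbm10, an RNA-binding splicing regulator related to Rbm5, had 0.48 (adjusted p = 0.0386, edgeR), lost without any 1 library (adjusted p from 0.0509 to 0.167).

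**Figure D2:**
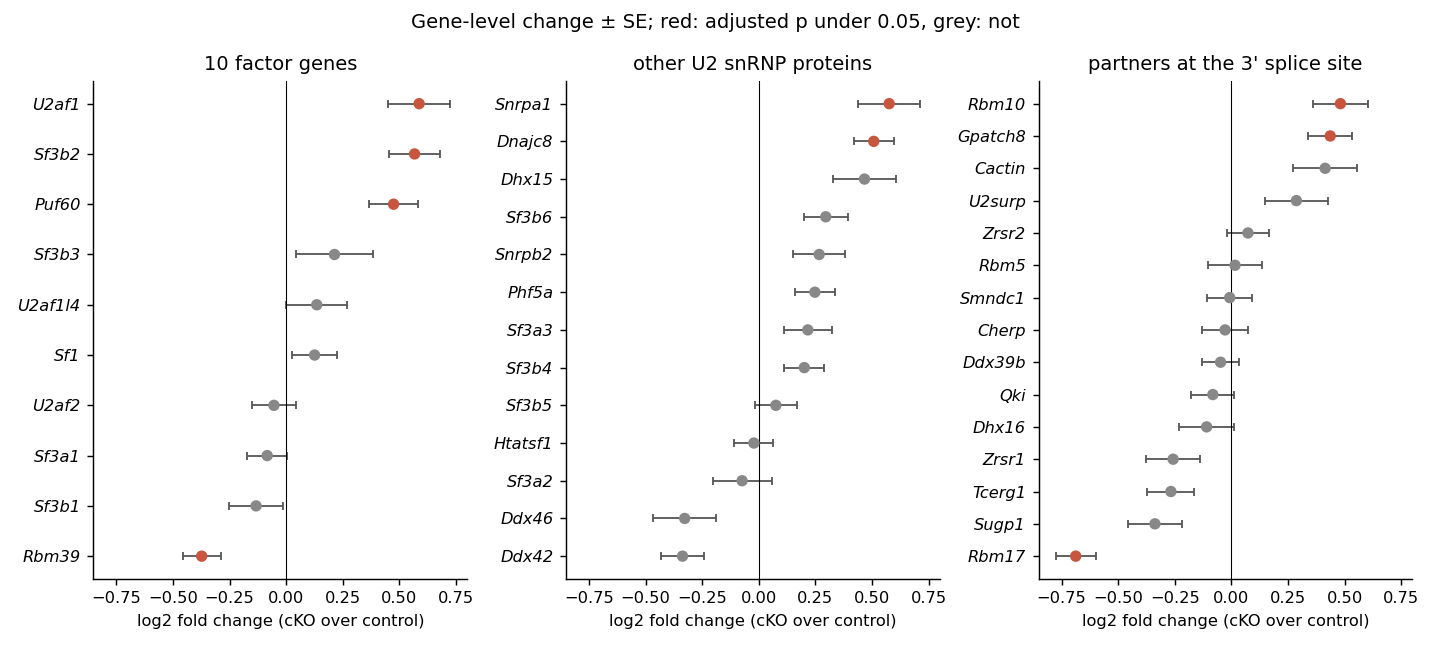
Log2 fold change of cKO over control with its standard error for the 10 factors, 13 other U2 snRNP proteins and 15 partners at the 3' splice site, each list sorted by value. Red points passed the edgeR test (adjusted p under 0.05) and grey points did not; 3 of the 10 factors are red on the right and 1 on the left.

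Levels were compared between genes only per length, as counts per kilobase of merged exons, scaled as CPM (RPKM). In the controls Rbm39 (18.5 ± 0.5 RPKM) and Sf3b2 (18.1 ± 1.0) stood highest, followed by Sf1 (16.9 ± 1.4), U2af1l4 (14.7 ± 2.3) and Puf60 (13.7 ± 1.6). Sf3b1 (8.52 ± 1.36), U2af2 (8.36 ± 0.59) and Sf3a1 (8.30 ± 0.48) followed, and U2af1 (6.02 ± 0.72) and Sf3b3 (3.54 ± 0.80) were lowest (SD, n = 3 in each case). Neighbours within the first 5, and Sf3b1, U2af2 and Sf3a1 among themselves, differed by less than their summed SDs. In cKO Sf3b2 (26.8 ± 3.9 RPKM) led and Rbm39 (14.3 ± 0.6) stood below Puf60 (19.1 ± 1.5) and Sf1 (18.5 ± 1.7). Retained-intron transcripts lengthen the merged exons of several of these genes, so the median reads across the introns of the leading transcript, in reads per 1000000 junction reads (RPM), were taken as a second measure of level. By that measure too Rbm39 (14.1 ± 0.4) and Sf3b2 (11.1 ± 0.1) were the highest and Sf3b3 (1.48 ± 0.20) the lowest in the controls, whereas U2af1 (5.34 ± 0.73) came above Puf60 (4.24 ± 0.58).

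Reads across introns gave the same directions as the gene counts for the 4 called genes. They come from the same libraries and are no independent test. The introns of a gene share its level, so the counts of introns below are not separate results. The share of such introns over all genes was not measured. For Sf3b2 the cKO libraries were above the controls at 20 of 20 introns, by ratios of 1.44 to 1.79. For Puf60 they were above at 10 of 11 introns without overlap, by 1.23 to 1.53 over all 11. For Rbm39 they were below at 16 of 16 introns, by ratios of 0.714 to 0.921, lowest at intron 3, which holds the 55-bp and 72-bp exons. Within U2af1 the ratio was uneven. It was 1.33, 1.07 and 1.33 at introns 1 to 3, with overlapping groups, and 1.45 to 1.79 at introns 4 to 7, where the groups stood apart.

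**Figure D3:**
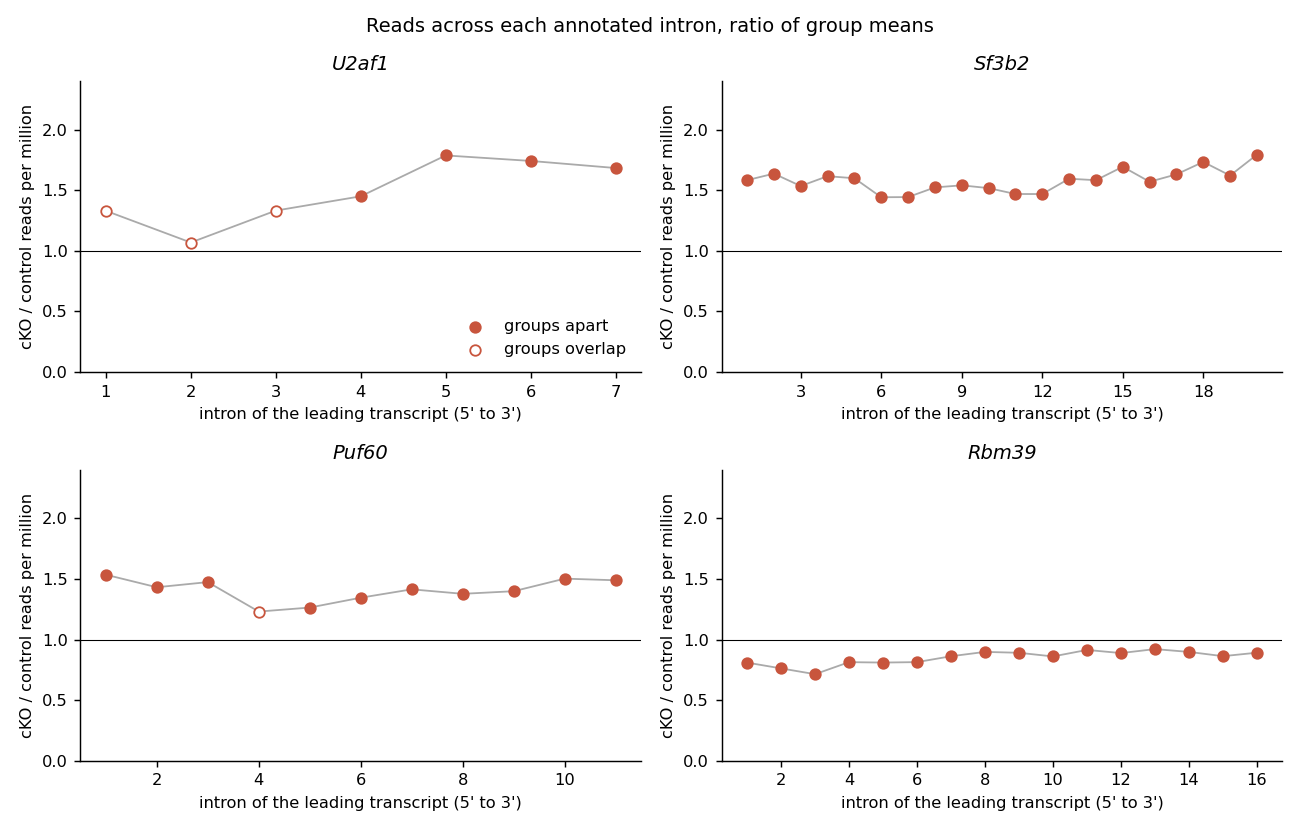
Ratio of the cKO mean to the control mean of reads per 1000000 junction reads across each annotated intron of the leading transcript of U2af1, Sf3b2, Puf60 and Rbm39, from the first intron to the last. Filled points mark introns where the 3 cKO and 3 control libraries do not overlap; the line at 1 is no difference. In U2af1 the first 3 introns lie at 1.07 to 1.33 and the last 4 at 1.45 to 1.79, while Sf3b2 lies above 1 and Rbm39 below 1 throughout.

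Within the genes, 290 junctions were found in the 10 factors, of which 191 are annotated. Junctions that share a donor or an acceptor were grouped into clusters, and the share of each junction in its cluster was tested, so that the result does not depend on the level of the gene. Of 114 junctions tested 1 was called, at an adjusted p under 0.05 and a change of at least 5 percentage points; over all genes 0.751% of 112047 junctions were. By adjusted p alone 4 of the 114 passed, against 2.27% of all.

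The called junction joins exon 3 of Rbm39 to its 55-bp exon (chr2:156176458-156177335). It had 12, 40 and 9 reads in the controls and 124, 69 and 80 in cKO. Its share of the cluster went from 2.36% ± 1.93 to 10.2% ± 2.1 (SD, n = 3, adjusted p = 0.0377, edgeR). The direction was the same without any 1 library, but the call was kept only without control 2 (adjusted p = 0.00690). The adjusted p was 0.207 and 0.188 without control 1 or 3, and 0.288, 0.105 and 0.131 without cKO 1, 2 or 3. With junctions grouped by gene, its share of the larger group changed by 0.413 points, so it was not called there either.

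Inclusion of an exon was measured as the mean of the reads into and out of it, over that mean plus the reads that skip it. Of 159 internal exons measured in the 10 genes, 10 had a mean inclusion between 5% and 95% in either group. A further test, chosen after the data had been seen, compared inclusion with skipping reads in edgeR over 21040 annotated exons of all genes. It called 4.13% of those exons at an adjusted p under 0.05 and a change of at least 5 points. In the factors it called 4 of 42 exons tested, 3 in Rbm39 and exon 2 of U2af1. Some of the 42 overlap or are skipped by the same reads; most of the 19 exons of Sf3b2 among them enter through 1 long junction with 40 reads in control 1.

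The 73-bp exon of Rbm39, in intron 2, was included in 8.09%, 8.94% and 7.75% of events in the controls and in 17.1%, 16.9% and 18.2% in cKO. The SDs were 0.613 and 0.683 points and the groups did not overlap. The change was 9.13 points (adjusted p = 0.00294 in the exon test, edgeR), and the call held without any 1 library (adjusted p at most 0.0243). Read in frame, the exon ends the Rbm39 protein after 40 of 530 codons, with the TAA printed above, 1442 bases before the last exon junction.

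The 55-bp exon, in intron 3, was included at 1.27%, 4.99% and 0.554% in the controls and at 14.8%, 9.35% and 10.3% in cKO. Control 2 was the highest control and still below every cKO library. The change was 9.21 points (adjusted p = 0.00323 in the exon test, edgeR). The 72-bp exon of the same intron was included at 6.79%, 5.45% and 3.47% in the controls and at 17.5%, 12.3% and 13.0% in cKO, a change of 9.03 points (adjusted p = 0.00704, edgeR). Both exons share most of their skipping reads, so they are not separate tests. Without cKO 1 neither passed, at adjusted p = 0.0556 for the 55-bp and 0.0849 for the 72-bp exon. Their first in-frame stops leave 39 and 47 codons. The 3 exons are annotated in transcripts marked for nonsense-mediated decay, the pathway that removes RNA with an early stop. An acceptor 40 bases upstream of the 72-bp exon that the annotation lacks was joined to the 55-bp exon in 0, 1 and 0 control reads and in 29, 19 and 14 cKO reads (adjusted p = 0.0444, edgeR). Its share changed by under 5 points, so it was not called. The same acceptor was joined to exon 3 in 0, 0 and 9 control reads and in 28, 11 and 10 cKO reads (adjusted p = 0.550, edgeR).

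**Figure D4:**
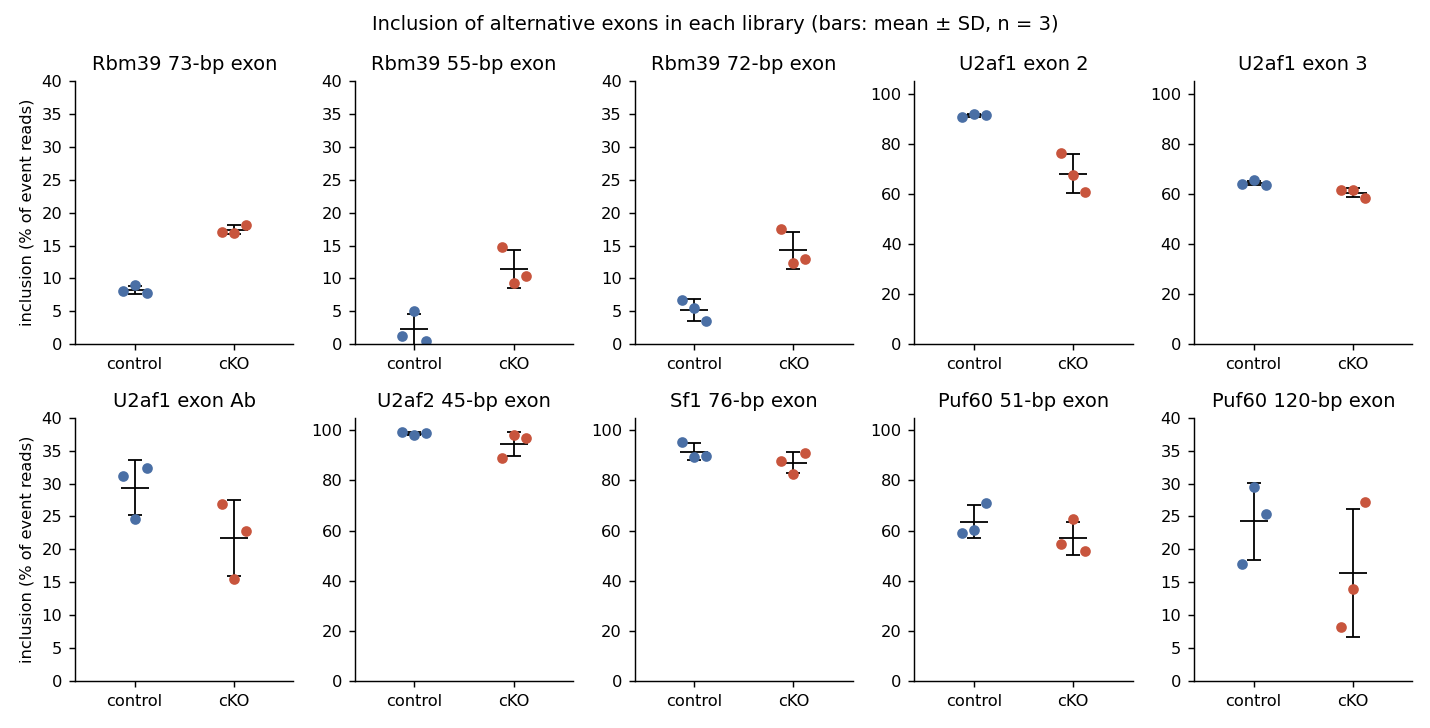
Inclusion in percent of event reads for the 10 alternative exons of the factors in each library (blue control, red cKO), with the mean and SD in black; each axis starts at 0. The 3 Rbm39 exons are higher and U2af1 exon 2 is lower in every cKO library than in any control, and in 4 of the other 6 exons the groups overlap. The share of all exons whose groups do not overlap was not measured.

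Exon 2 of U2af1, 88 bases long, was included at 90.7%, 91.7% and 91.4% in the controls and at 76.1%, 67.3% and 60.8% in cKO. All cKO libraries lay below all controls, and the cKO libraries were more spread than the controls. The mean went from 91.3% ± 0.5 to 68.1% ± 7.7 (SD, n = 3; adjusted p = 0.00125 in the exon test, edgeR), and the call held without any 1 library (adjusted p at most 0.0391). The size depended on the junction used. By the reads into the exon alone the change was -28.3 points, and by the reads out of it alone -18.7 points. The skipping reads came from 2 junctions. The annotated one, from exon 1 to exon 4, had 15, 14 and 18 control reads and 47, 69 and 104 cKO reads, and the unannotated one, from exon 1 to exon 3, had 0, 4 and 0 against 20, 12 and 46. In the junction test neither was called (adjusted p = 0.196 and 0.125, edgeR); its cluster spans both mutually exclusive exons as well. Without exon 2 the reading frame stops after 19 codons in place of 239, and without exons 2 and 3 after 26.

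Exons 3 and Ab of U2af1 replace each other, and the frame keeps 239 codons with either. Exon 3 was included at 64.1%, 65.4% and 63.6% in the controls and 61.4%, 61.7% and 58.3% in cKO (adjusted p = 0.703 in the exon test, edgeR). Exon Ab was included at 31.2%, 24.6% and 32.3% against 26.9%, 15.5% and 22.8% (adjusted p = 0.405, edgeR). Neither passed, although the groups of exon 3 did not overlap.

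The 4 remaining alternative exons did not pass either. A 45-bp exon of U2af2, which keeps the frame, was included at 99.1%, 98.1% and 98.9% in the controls and 89.1%, 98.1% and 96.8% in cKO, where cKO 1 stood apart (adjusted p = 0.294 in the exon test, edgeR). A 76-bp exon of Sf1, whose loss shifts the frame and leaves 110 of 639 codons, was included at 95.3%, 89.5% and 89.6% against 87.8%, 82.5% and 90.9% (adjusted p = 0.435, edgeR). Puf60 has a 51-bp exon that keeps the frame, included at 59.1%, 60.3% and 71.0% against 54.4%, 64.4% and 52.0% (adjusted p = 0.435, edgeR). It also has a 120-bp exon with an early stop, after 18 of 564 codons, included at 17.8%, 29.5% and 25.4% against 8.18%, 13.9% and 27.1% (adjusted p = 0.617, edgeR). The groups of both Puf60 exons overlapped.

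Junctions that the annotation lacks took 0.296%, 0.187% and 0.245% of the junction reads of the 10 factors in the controls and 0.578%, 0.605% and 0.663% in cKO. The groups did not overlap, and the mean went from 0.243% ± 0.054 to 0.615% ± 0.043 (SD, n = 3). Without the highest unannotated junction of each gene the difference was 0.217 points in place of 0.372. Over all genes the share was 1.11% to 1.44% in the controls and 1.46% to 1.52% in cKO. In 5 of the 10 genes the groups did not overlap, and cKO was the higher group in each. The same held for 26.8% of the 6929 genes with at least 1000 junction reads in each library, the 10 factors among them. The control and cKO means were 0.567% and 1.31% in U2af2, 0.430% and 2.19% in U2af1l4, 0.109% and 0.288% in Sf3b3, 0.107% and 0.708% in Puf60, and 0.0519% and 0.586% in Rbm39. No test was made of these shares, and that of U2af1l4 may include reads of Gm49396, which overlaps it on the same strand.

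The new acceptor 12 bases inside a U2af1l4 exon (chr7:30564799-30565106) had 0, 3 and 4 reads in the controls and 58, 54 and 65 in cKO. It took 0.220% ± 0.191 of the reads of that intron in the controls and 4.41% ± 0.39 in cKO (SD, n = 3), and the removed 12 bases keep the reading frame. Its adjusted p was 0.00724 in the junction test (edgeR), but its cluster share changed by under 5 points, so it was not called. All 3 cKO libraries held it at a like level, while the gene count of U2af1l4 did not pass. Gm49396 also spans this junction on the same strand, so its reads could belong to either gene.

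The new acceptors in Puf60 and Rbm39 were less even. The one 7 bases inside the last Puf60 exon had 0, 0 and 0 control reads and 0, 47 and 65 cKO reads (adjusted p = 0.0542, edgeR). The one 6 bases inside an Rbm39 exon had 0, 0 and 0 against 0, 31 and 47 (adjusted p = 0.0409, edgeR), with a share change under 5 points. Neither was called. Both were listed at 0 in cKO 1 as well as in the controls.

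Nor was the unannotated junction with the most reads called in any of the other 7 genes. That of Sf3b1, with reads in 1 library, was not tested. In Sf1, an acceptor 21 bases inside an exon had 75, 17 and 78 control reads and 69, 93 and 13 cKO reads. In U2af1, a junction from exon 2 to exon 4, which leaves out both exclusive exons, had 8, 31 and 11 against 24, 24 and 30, and in U2af2 one at chr7:5068793-5069443 had 24, 22 and 0 against 13, 8 and 36. Both sets overlapped between groups. In Sf3b3 one at chr8:110844600-110846702 had 10, 0 and 2 reads against 12, 16 and 11 (unadjusted p = 0.330, edgeR, and not called). These raw reads did not overlap, but scaled to the junction reads of each library they did. Those of Sf3b1, Sf3b2 and Sf3a1 had reads in 1 to 3 libraries only: 95 reads in cKO 3 alone for Sf3b1, 2, 27 and 46 reads in control 2, control 3 and cKO 2 for Sf3b2, and 11 and 8 reads in control 2 and cKO 3 for Sf3a1.

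**Figure D5:**
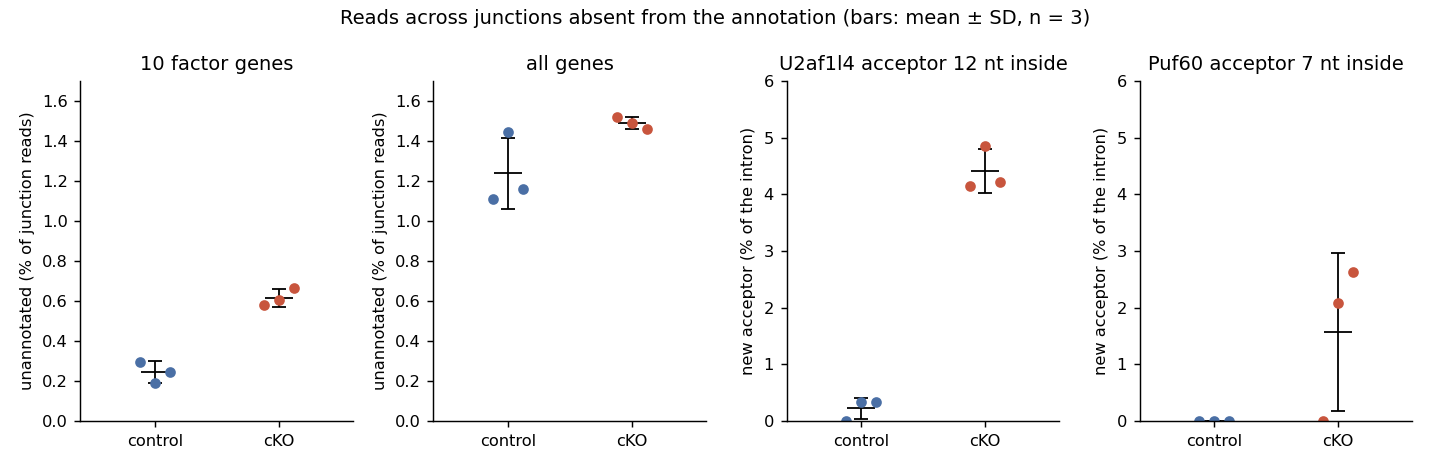
From left to right, the share of junction reads on unannotated junctions in the 10 factors and in all genes, and the share of reads of 1 intron that used a new acceptor in U2af1l4 and in Puf60, for each control (blue) and cKO (red) library with the mean and SD in black. The factors go from 0.243% to 0.615% on average, and the U2af1l4 acceptor is near 0 in the controls and at 4.15% to 4.86% in cKO.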

How the data were processed

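Per the labels' protocols, double-stranded cDNA was made from 10 ng of RNA a library, amplified with the NuGEN Ovation system and sequenced on an Illumina HiSeq instrument; amplified reads are not independent molecules. TopHat2 2.1.0 with HTSeq 0.6.0, on mm10, is named in the submitters' processing notes. For the annotation, the strand setting and multiply aligned reads, the settings are not given in the sources read here. What the authors deposited are unnormalized read counts: 1 table by gene, and 1 list a library of reads across splice junctions. No per-sample column was left unmapped.

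Genes were tested with edgeR 4.0.16 (R 4.3.3; filterByExpr, TMM, quasi-likelihood test, no covariate), with Benjamini-Hochberg adjustment over 16067 genes. Junctions with at least 10 reads and reads in at least 2 libraries were tested with diffSpliceDGE within clusters. Exons entered the added exon test with at least 10 inclusion and 10 skipping reads over the 6 libraries and 20 reads of both in each. A junction was annotated where GENCODE M21 holds it. DESeq2 1.42.0 and limma-voom (limma 3.58.1) were alternatives. The tests were tested on simulated data. Members, gene lists and the rules for naming were chosen with earlier results of these data known: all 10 factors, called members of the wider lists, called junctions, exons with inclusion of 5% to 95% and the highest unannotated junction of each gene are named; other junctions were chosen after their values were seen. Labels give each library 1 cerebellum. Replicate numbers recur in both groups, but deviations of same-numbered libraries correlated at 0.04, -0.06 and 0.02, so the libraries were treated as unpaired.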

Additional observations from a re-analysis of the deposited data

How the results depend on the processing

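The 4 calls among the factors, and their 3 to 1 split, held under RLE and upper quartile scaling, without a count filter, with at least 50 counts in 3 libraries, with DESeq2 and with limma-voom; the cause of the losses on leaving out 1 library was not tested, and 2 libraries in a group also widen the error. Leaving out 1 library gave 1 to 3 calls among the factors and 2 to 5 in the wider lists (5 with all libraries), 0 to 1 called junctions and 2 to 4 exons in the exon test. On leaving out 1 library, 3 factors that were not called changed sign near 0: U2af2 ranged from -0.106 to 0.00263, Sf3b1 from -0.240 to 0.00112 (both positive without control 1) and U2af1l4 from -0.00267 (without control 2) to 0.200 on the log2 scale. The Rbm17 value stayed between -0.71 and -0.67 under every setting run. Called factor junctions numbered 0 at a share change of 10 points, 0 with junctions grouped by gene, 2 with reads required in at least 3 libraries and 4 with no minimum share change. Grouped by gene, the share was of all tested junctions of the gene, and the Rbm39 junction had an adjusted p of 0.00111 (edgeR). With the replicate number as a block, 4 factors, 7 wider genes and 4 exons were called, and the called Rbm39 junction was lost (0 junctions, adjusted p = 0.0828, edgeR). Not every library correlated best with its own number. Without the highest unannotated junction of each gene, the unannotated share differed by 0.217 points in place of 0.372. With at least 30 reads required, 1 junction was called, as in the main test. The 3 libraries a group allow no exact two-sided p below 0.1.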

Other observations

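Several acceptors inside exons that the annotation lacks had reads in 1 library alone: 35 reads in cKO 3 at an acceptor 4 bases inside a U2af1 exon, 44 reads in cKO 1 at one 6 bases inside an Sf3b2 exon, 16 reads in cKO 3 at one 11 bases inside an Sf1 exon, and 25 reads in cKO 2 at one 14 bases inside an Rbm39 exon. An acceptor 27 bases inside an Sf3b2 exon had 55 reads in cKO 1 and at most 3 in any other library. A junction that spans nearly all of Sf3b2 had 40 reads in control 1 and 0 in the other 5 libraries. A junction of U2af2 at chr7:5066182-5066402 had 0 reads in each control and 8, 10 and 3 in the cKO libraries (adjusted p = 0.238, edgeR).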
